A study of Mus musculus with 6 samples.

Results

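The angiopoietin and Tie receptor genes are a group of 6 genes that encode a vascular signalling pathway, and their transcripts were counted in whole mouse hearts at embryonic day 13.5. The members are Tek and Tie1, which encode the Tie receptors, Ptprb, which encodes a phosphatase that acts on them, and Angpt1, Angpt2 and Svep1, which encode secreted proteins that bind them. They were found as the rows of the raw count table whose identifier carries one of these symbols in the authors' table of the comparison, and they account for 6 of the 45792 genes counted. All 6 passed the filter on low counts. None reached an adjusted p under 0.05 between mutant-labelled and control-labelled hearts in edgeR, nor did any other of the 17125 genes tested. DESeq2 called 1 member, Angpt2, lower (adjusted p 0.010), where it called 3.22% of all genes lower. The values furthest apart were those of Angpt2, at a mean of 4.02 ± 2.93 counts per M counts of a library (CPM; SD, n = 3) in the 3 hearts labelled control and 1.25 ± 0.234 in the 3 labelled mutant, and 1 control heart held much of that distance.

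The series holds 3 hearts labelled wild-type and 3 labelled Tie2Cre INO80 flox/flox, all with the strain given as C57BL/6. In the mutant embryos both Ino80 alleles carry a floxed exon, and the Cre transgene is driven by regulatory DNA of Tek, itself one of the members, which is active in endothelial and endocardial cells and in blood cell lineages that derive from them. Heart muscle cells are not targeted, so the RNA of a mutant heart comes from recombined and unrecombined cells together. The study elsewhere counts any genotype other than the mutant as a control and describes its mice as being of mixed background, so whether the control hearts carried Cre or 1 floxed allele cannot be told apart from the labels. Each library was made from a single heart, and separate embryos are taken to be separate replicates.

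Tie2, the protein product of Tek, is a receptor tyrosine kinase of endothelial cells. Angiopoietin 1, secreted mostly by cells around the vessel, activates it and stabilises the vessel wall through the PI3K-AKT relay, which keeps FOXO transcription factors out of the nucleus. Angiopoietin 2, made largely by endothelial cells at sites of vessel remodelling, acts as a weak activator or as an antagonist according to context. Tie1 has no classical ligand and modulates Tie2, the phosphatase encoded by Ptprb (VE-PTP) removes phosphate from Tie2, and Svep1 is a large extracellular matrix protein that binds Tie1. Mice without Tek or Angpt1 die at midgestation with defects of the endocardium and the trabeculae of the heart.

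Regulatory DNA of Tek drives Cre in these animals. The 250 bases before the annotated start of the endogenous gene are shown, as given by RefSeq on GRCm38.p6, chr4:94739039-94739288, plus strand.

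Tek upstream: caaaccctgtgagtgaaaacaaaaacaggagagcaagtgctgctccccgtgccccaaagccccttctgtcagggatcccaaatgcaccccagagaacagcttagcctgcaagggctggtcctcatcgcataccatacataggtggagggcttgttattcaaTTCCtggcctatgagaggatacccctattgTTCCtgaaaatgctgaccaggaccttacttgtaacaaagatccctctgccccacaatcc

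The capitals mark the core of the motif bound by ETS factors, GGAA, which here reads TTCC because it lies on the other strand. It occurs 2 times, 89 and 59 bases upstream of the start, and the window holds no annotated exon and has a GC content of 51.2%. A promoter window of the RefSeq table runs from 250 bases before to 50 after a gene's start, and only its 250 upstream bases were searched. These held 2 matches to GGAA or TTCC for Tek, 7 for Tie1 and 6 for Svep1. Of all 32851 promoters in that table, 93.4% hold at least 1 in these bases, so the short core does not set these genes apart. The longer form GGAAG or CTTCC, which contains the core, was found 6 times for Tie1, 3 times for Svep1 and 0 times for Tek, and 64.1% of all promoters hold it. AGATAA or TTATCT, a form of the GATA motif, was found in none of the 3 windows and in 9.99% of all promoters. These are matches of letters and were not tested as binding sites. Angpt1, Angpt2 and Ptprb had no window in the table, and the sequence of the transgene itself is not analysed here.

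Between 28948836 and 89675692 counts per heart were assigned to genes. Ino80, the targeted gene, had 30.2, 31.6 and 32.7 CPM in control-labelled hearts 1 to 3 and 36.5, 33.7 and 31.8 CPM in mutant-labelled hearts 1 to 3, so its total count did not separate the labels and the groups are named by label throughout. In endothelial cells isolated from mutant hearts, rather than in whole hearts, the paper reports that quantitative PCR found no detectable Ino80 mRNA. Library sizes behind the CPM were adjusted by TMM for differences in composition. Each of the 17125 genes that passed the filter was tested in edgeR by quasi-likelihood, with p-values adjusted after Benjamini and Hochberg. An adjusted p under 0.05 was reached by 0% of them in either direction. The unadjusted p was under 0.05 for 9.48% with a higher and 9.98% with a lower level, 19.5% in all. By DESeq2, 2.63% passed as higher and 3.22% as lower after adjustment, 5.85% in all. In 14.3% of tested genes every mutant-labelled heart was above every control-labelled heart, and in 12.8% every one was below, 27.1% in all. In RNA of whole hearts, fewer cells of a type and less RNA per cell cannot be told apart. As for the labelled tissue, 9 cardiomyocyte markers summed to between 22282 and 27615 CPM in every heart, whereas 4 of 5 liver markers had no count in at least 1 heart.

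Against this background, 1 of the 6 members was higher at an unadjusted p under 0.05 (Svep1) and 1 was lower (Angpt2). With DESeq2, 0 members were called higher and 1, Angpt2, was called lower. The groups did not overlap for 1 member in each direction, Tie1 (higher) and Angpt2 (lower). The median log2 fold change of the 6 members, mutant-labelled over control-labelled, was 0.22, beside -0.0017 over all tested genes.

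**Figure D1:**
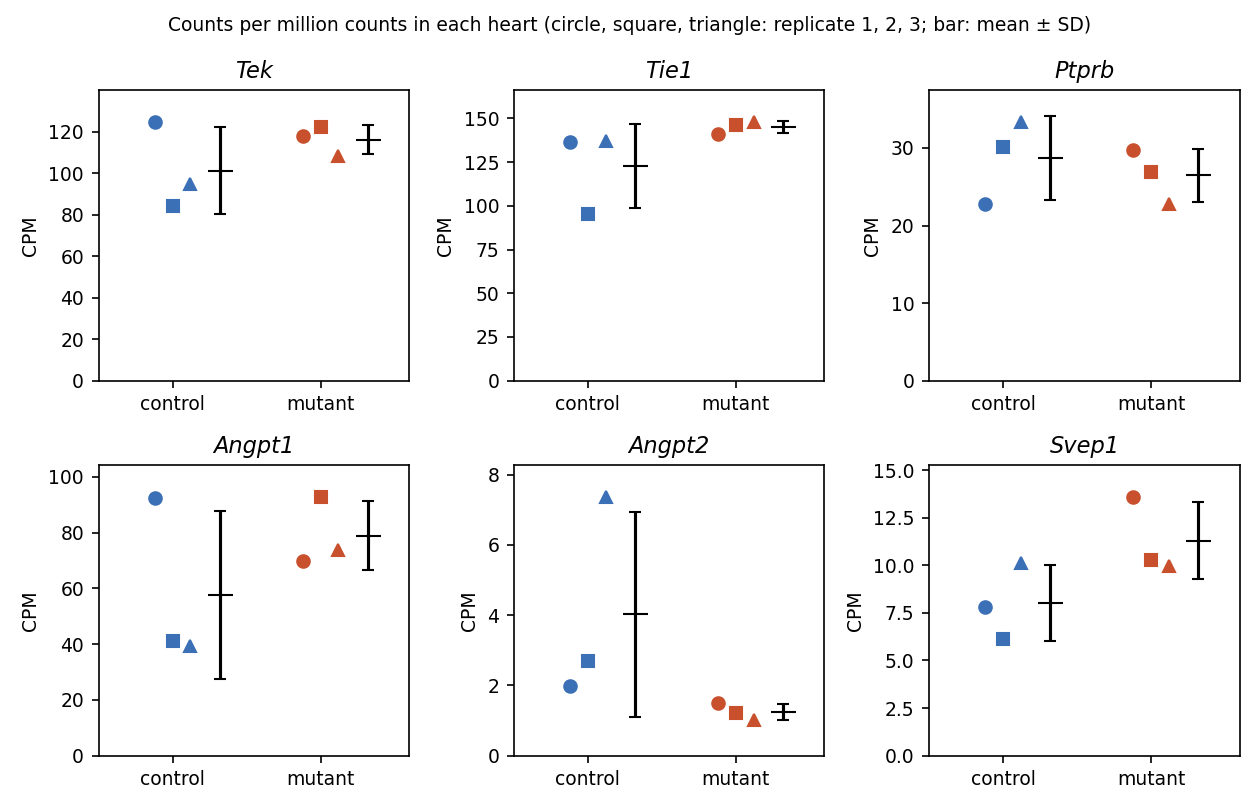
Expression of the 6 genes in CPM (vertical axes, from 0) in each heart, grouped by label. Symbols are replicates 1 to 3 and bars give the mean ± SD of 3 hearts. For Angpt2 all mutant-labelled hearts lie below all control-labelled hearts, and control heart 3, at 7.38 CPM, stands far above the rest.

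Tek (ENSMUSG00000006386.13), on chromosome 4 from 94739289 to 94874976 of GRCm38, plus strand, has 23 merged exons. Its level was 125, 84.3 and 94.7 CPM in control-labelled hearts 1 to 3 and 118, 122 and 108 CPM in mutant-labelled hearts 1 to 3. The groups overlapped, since control heart 1 had the highest value of all 6 and the other two controls had the lowest. The means were 101.3 ± 21.1 and 116 ± 7.06 CPM. The log2 fold change was 0.20 (SE 0.14, 95% interval -0.12 to 0.51), with an edgeR adjusted p of 0.44. In these hearts the endogenous gene whose regulatory DNA drives Cre was therefore not shown to differ between the labels, and the interval leaves room for little decrease and for an increase of up to 0.51 on the log2 scale. Without control heart 1 the estimate was 0.38 and without control heart 2 it was 0.083.

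Tie1 (ENSMUSG00000033191.12) lies on the same chromosome, from 118471191 to 118490061 on the minus strand, with 22 merged exons. The control-labelled hearts had 137, 95.2 and 137 CPM and the mutant-labelled hearts had 141, 146 and 148 CPM. All 3 mutant-labelled values were higher than all control-labelled values, though 2 of the controls came within a few CPM of them and control heart 2 was the one set apart. The log2 fold change was 0.24 (SE 0.13, interval -0.07 to 0.55) with an edgeR adjusted p of 0.35, and it was 0.086 when control heart 2 was left out. The groups' means were 123 ± 24.1 and 145 ± 3.54 CPM.

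Ptprb (ENSMUSG00000020154.9), the gene of the receptor phosphatase, lies on chromosome 10 from 116275523 to 116389535, plus strand, in 35 merged exons. It had 22.8, 30.1 and 33.4 CPM in control-labelled hearts and 29.7, 26.9 and 22.8 CPM in mutant-labelled hearts. The same lowest value was reached in both groups and they overlapped over most of their range. Its log2 fold change was -0.11 (SE 0.15, interval -0.47 to 0.24), the smallest in size of the 6, with an edgeR adjusted p of 0.70. The sign turned, to 0.0093, when control heart 3 was left out.

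Angpt1 (ENSMUSG00000022309.8), the gene of the activating ligand, is on chromosome 15 from 42424723 to 42676977, minus strand, with 10 merged exons. In the control group its level was 92.4 CPM in heart 1, 41.2 in heart 2 and 39.3 in heart 3, and the mutant-labelled hearts had 69.8, 92.9 and 73.8 CPM. Control heart 1 was nearly level with the highest mutant-labelled heart, while the other two controls were lower than every mutant-labelled heart. The means were 57.6 ± 30.1 and 78.9 ± 12.4 CPM, and the log2 fold change was 0.45 (SE 0.31, interval -0.26 to 1.16; edgeR adjusted p 0.44). The outcome of the test rested on control heart 1. When it was left out the log2 fold change was 0.97 with an edgeR adjusted p of 0.013, in a fit that called 1.85% of 17290 genes higher and 2.49% lower. Over its alternatives the adjusted p ran from 0.013 to 0.74. The same 4 hearts, control heart 1 and the mutant-labelled hearts, had the highest levels of both Tek and Angpt1. An antisense gene, Gm17473, shares 737 exon bases with Angpt1 and had between 0.443 and 0.846 CPM, and whether the counting used strand is not stated.

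Angpt2 (ENSMUSG00000031465.6), the gene of the context-dependent ligand, lies on chromosome 8 from 18690263 to 18741562, minus strand, in 10 merged exons, inside Mcph1 on the opposite strand. The 2 genes share 0 exon bases, and Mcph1 itself averaged 18.6 ± 2.06 CPM under the control label and 18.7 ± 0.740 under the mutant label. Angpt2 had 76, 79 and 239 counts in control-labelled hearts 1 to 3 and 138, 52 and 30 counts in the mutant-labelled hearts, which correspond to 1.997, 2.69 and 7.38 CPM and to 1.49, 1.22 and 1.03 CPM. Every mutant-labelled heart was lower than every control-labelled heart. The distance between the nearest hearts, control 1 and mutant 1, was small beside the distance of control heart 3 from the others.

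The log2 fold change of Angpt2 was -1.66 (SE 0.47, interval -2.75 to -0.57), which is 3.17-fold lower in mutant-labelled hearts, and in size it was above that of 99.3% of tested genes. Its edgeR p was 0.0077 unadjusted and 0.14 after adjustment. DESeq2 gave -1.68 with an adjusted p of 0.010. EdgeR without a filter on low counts gave an adjusted p of 0.037, in a fit that called 341 of 28298 genes lower. When control heart 3 was left out the value was -0.89 (edgeR adjusted p 0.23), and when control heart 1 was left out it was -1.99 (edgeR adjusted p 0.046). The direction was the same in all 12 alternatives, in which the adjusted p ran from 0.010 to 0.31.

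Ranked from high to low, Angpt2 ran control 3, control 2, control 1, mutant 1, mutant 2, mutant 3. The mean log2 level of 9 mural cell markers had the same order, although none of the 9 had it singly. The mean log2 levels of the other marker lists, the endothelial list among them, did not have this order. The mural match was thus selected from several lists. Eln also had the order of Angpt2. It is given here because it was among the 5 genes of most similar pattern to Angpt2, so that its order is no separate finding. Eln encodes elastin, the elastic fibre protein of arteries and valves, and had 101.25, 111 and 342 CPM in control-labelled and 66.0, 60.7 and 57.8 CPM in mutant-labelled hearts, a log2 fold change of -1.59 (SE 0.43; edgeR adjusted p 0.13). The mural mean was 5.79 ± 0.31 against 5.29 ± 0.06 on the log2(CPM + 1) scale, a difference of -0.50 (exact two-sided permutation p = 0.1, the smallest that 3 against 3 hearts can give). Its 9 genes had between 1402 and 1724 CPM in sum under the control label and between 1243 and 1479 under the mutant label, with 0 of them at 0 in any heart, and 8 of 9 had a log2 fold change below 0.

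Of the mural markers, 3 of 9 were lower with an unadjusted p under 0.05, where 9.98% of all genes were. These 3 were chosen after their values were seen, and they made up most of the difference in the mural mean. Rgs5, a pericyte gene, had 81.7 ± 32.4 and 13.3 ± 2.55 CPM (log2 fold change -2.62, SE 0.31, edgeR adjusted p 0.065, DESeq2 adjusted p 3.1e-08). Kcnj8, a potassium channel gene of the same cells, had 21.3 ± 5.80 and 12.7 ± 1.53 CPM (-0.74, edgeR adjusted p 0.13, DESeq2 adjusted p 0.011). Myh11, the smooth muscle myosin gene, had 2.77 ± 2.08 and 0.515 ± 0.182 CPM (-2.40, edgeR adjusted p 0.13, DESeq2 adjusted p 0.0045). DESeq2 thus called these 3 lower and 0 of the 9 higher, where it called 3.22% and 2.63% of all genes. The 2 mural markers with the highest level per kb were Acta2, at 1105 ± 153 and 1023 ± 109 CPM (log2 fold change -0.11), and Tagln, at 57.1 ± 20.5 and 87.4 ± 26.2 CPM (0.62), and the groups overlapped for both. Pdgfrb, Cspg4, Abcc9 and Notch3 had log2 fold changes of -0.16, -0.25, -0.17 and -0.26. Their groups overlapped too, and none had an unadjusted edgeR p under 0.05. Red cell markers also separated control heart 3, at 18296 CPM in sum, from the rest, which held between 2757 and 8055 CPM, although near-identical globin copies make these sums uncertain. The part of mural cells and of blood content in the Angpt2 values was not tested.

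Svep1 (ENSMUSG00000028369.13), the matrix ligand of Tie1, is on chromosome 4 from 58042442 to 58206859, minus strand, with 47 merged exons. It had 7.83, 6.13 and 10.1 CPM in control-labelled and 13.6, 10.3 and 9.95 CPM in mutant-labelled hearts. The groups overlapped only because control heart 3 was a little above mutant heart 3, and mutant heart 1 was the highest. The means were 8.03 ± 2.01 and 11.3 ± 2.02 CPM. Its log2 fold change was 0.50 (SE 0.20, interval 0.03 to 0.96), with an edgeR p of 0.038 unadjusted and 0.23 adjusted, and DESeq2 gave an adjusted p of 0.18. Leaving out each heart in turn moved it between 0.33 and 0.70. The long noncoding gene Gm26889, which shares 2244 exon bases with it, had 0 counts in every heart.

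**Figure D2:**
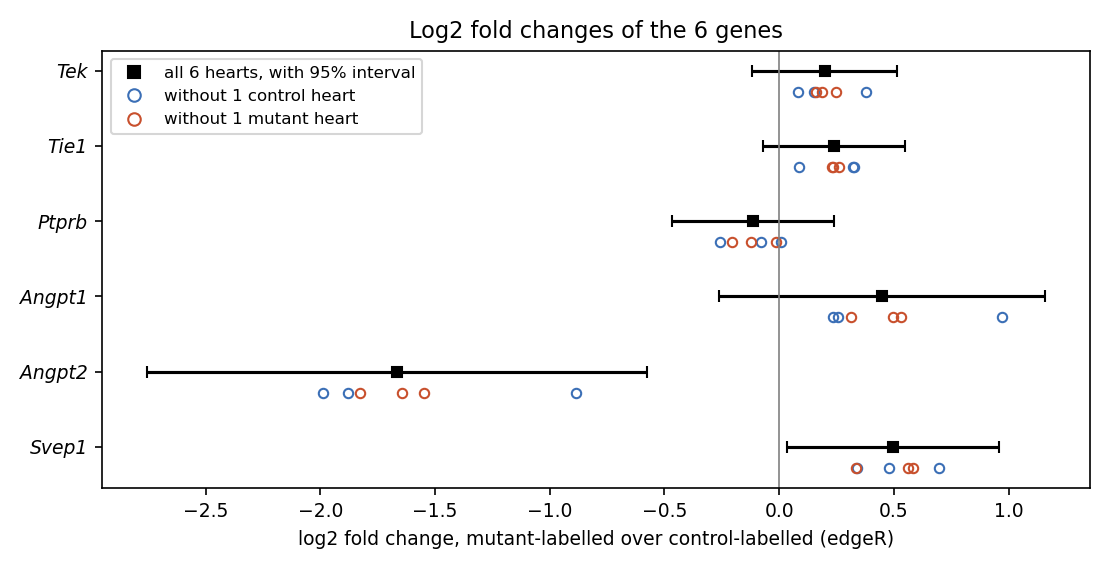
Log2 fold changes of the 6 genes, mutant-labelled over control-labelled (horizontal axis), from edgeR. Squares with bars give the value of all 6 hearts with its 95% interval, and open circles give the value after 1 heart was left out. The intervals of Angpt2 and Svep1 leave out 0, and single control hearts move Angpt2 to -0.89 and Angpt1 to 0.97.

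To compare levels between genes, CPM were divided by the kilobases of merged exon. In this unit the order over all hearts was Tie1, Tek, Angpt1, Ptprb, Angpt2 and Svep1, which puts the receptors above their ligands. Tie1 had 25.0 ± 4.89 CPM per kb under the control label and 29.5 ± 0.72 under the mutant label, and Tek had 21.5 ± 4.48 and 24.7 ± 1.498. These ranges overlapped over hearts, but within each heart Tie1 was above Tek, by between 1.05 and 1.39 times. Angpt1 followed at 11.1 ± 5.79 and 15.1 ± 2.37 CPM per kb, and its highest heart, at 17.9, was level with the lowest heart of Tek. Ptprb was far below, at 2.16 ± 0.41 and 1.98 ± 0.26 CPM per kb.

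The order at the bottom differed between the labels. Angpt2 had 0.541, 0.729 and 1.999 CPM per kb in control-labelled hearts 1 to 3, above Svep1 in each, with 0.486, 0.380 and 0.628. In mutant-labelled hearts Angpt2 had 0.404, 0.331 and 0.278 CPM per kb, below Svep1 in each, with 0.844, 0.639 and 0.617. The same hearts and counts underlie the fold changes above, so this is not a separate measurement.

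The balance of the angiopoietins was compared as a ratio within each heart, which does not depend on the scaling of the library. Per kb of exon, control-labelled hearts 1 to 3 had 32.8, 10.9 and 3.78 times as much Angpt1 as Angpt2, and mutant-labelled hearts 1 to 3 had 33.2, 53.9 and 51.0 times as much. Angpt1 was thus the more abundant ligand in every heart. The groups did not overlap, but control heart 1 and mutant heart 1 were nearly equal, and the control values spread over a far wider range. With 1 CPM added to both genes the order of that pair of hearts turned, so the groups then overlapped. On the log2 scale the ratio of Angpt2 to Angpt1 in CPM was -3.96 ± 1.56 against -5.99 ± 0.38, a difference of -2.03 (exact two-sided permutation p = 0.1, the smallest possible here, and 0.23 after adjustment over 7 ratios). Without control heart 3 the difference was -1.25 and without control heart 1 it was -2.81.

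Between the receptors the ratio was steadier. The log2 ratio of Tie1 to Tek in CPM was 0.28 ± 0.22 and 0.32 ± 0.11, a difference of 0.043 (exact permutation p = 0.8). Ptprb relative to Tek was -1.82 ± 0.55 and -2.14 ± 0.13, a difference of -0.33 (exact permutation p = 0.4, adjusted 0.56), which lay between -0.65 and -0.16 when a heart was left out.

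**Figure D3:**
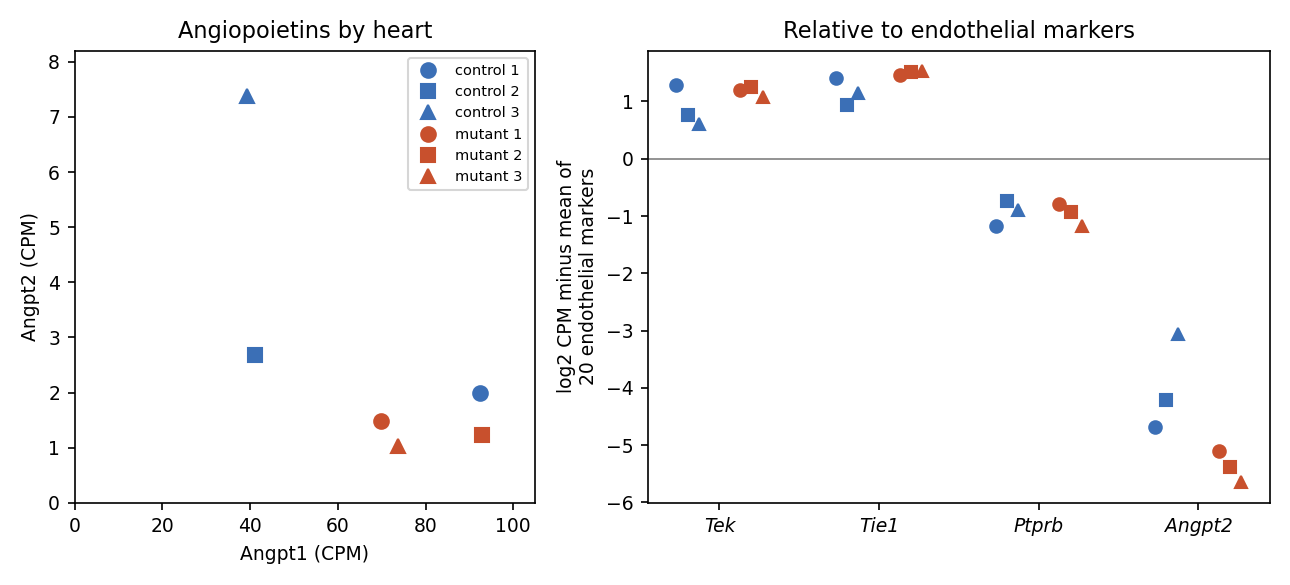
Left, Angpt2 against Angpt1 in CPM for each heart. Right, log2 CPM of 4 genes minus the mean log2 CPM of 20 endothelial markers in each heart. Control hearts 2 and 3 combine the least Angpt1, 41.2 and 39.3 CPM, with the most Angpt2, and the Tie1 and Angpt2 values of the labels do not overlap.

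Since Tek, Tie1 and Ptprb are endothelial genes and endothelial cells make most Angpt2, these 4 genes were also set against 20 endothelial markers, none of them a member. Of the markers, 5 had a log2 fold change above 0 and 15 below, with a median of -0.079, and their sum ran from 1368 to 1769 CPM in control-labelled and from 1430 to 1478 CPM in mutant-labelled hearts. By unadjusted p (under 0.05), 1 of the 20 was higher and 4 were lower, where 9.48% and 9.98% of all genes were. The higher gene was Tal1 (log2 fold change 0.34, SE 0.14). The lower genes were Esam (-0.33, SE 0.08), Cd34 (-0.38, SE 0.10), Fli1 (-0.22, SE 0.08) and Sox18 (-0.42, SE 0.17). These genes were named after their values were seen. DESeq2 called 0 of the 20 higher and 2 lower, Esam and Cd34, where it called 2.63% and 3.22% of all genes. The most abundant markers per kb were Cdh5, the gene of VE-cadherin, with 262 ± 38.0 and 256 ± 4.47 CPM, and Eng, the gene of the TGF-beta coreceptor endoglin, with 217 ± 45.6 and 216 ± 9.05 CPM.

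Each value was the log2 CPM of the gene minus the mean log2(CPM + 1) of these markers, so 1 CPM was added to the markers only. Relative to the mean of these markers, Tie1 was 1.16 ± 0.24 log2 units above it under the control label and 1.502 ± 0.03 under the mutant label, a difference of 0.34 without overlap (exact permutation p = 0.1, adjusted 0.23), which was 0.22 without control heart 2. For Tek the difference was 0.29 with overlap (exact permutation p = 0.4, adjusted 0.56), and it was 0.49 without control heart 1 and 0.16 without control heart 3. Ptprb was at -0.93 ± 0.22 and -0.96 ± 0.20, a difference of -0.031 (exact permutation p = 0.8). Angpt2 lay at -3.99 ± 0.83 and -5.38 ± 0.28, a difference of -1.39 without overlap (exact permutation p = 0.1, adjusted 0.23), which lay between -1.74 and -0.93 when a heart was left out.

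The other genes of the pathway were described in 5 lists. None of their 57 tested genes passed an adjusted p under 0.05 in edgeR, and DESeq2 called 0 of the 57 higher and 4 lower, where it called 2.63% and 3.22% of all genes. Angiopoietin-like proteins resemble the angiopoietins in sequence but do not bind Tie2. The list of this family also held Angpt4, which encodes an angiopoietin. Angpt4 had 0.070 ± 0.047 and 0.080 ± 0.032 CPM and was not tested. Of the 8 genes in the list 5 were tested, with 1 log2 fold change above 0 and 4 below (median -0.042). An unadjusted p under 0.05 was reached by 0 of them and by 19.5% of all genes. Angptl2, the most abundant, had 96.7 ± 8.89 and 98.9 ± 6.71 CPM, and Angptl7 had 6.36 ± 2.93 and 4.01 ± 1.23 CPM.

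The list of receptor adaptors and the PI3K-AKT-FOXO relay had 22 tested genes of 22, with 11 above 0 and 11 below and a median of -0.0070. At an unadjusted p under 0.05, 1 was higher and 2 were lower, where 9.48% and 9.98% of all genes were. DESeq2 called 0. Akt1, the kinase gene with the highest level per kb, had 411 ± 8.19 and 460 ± 10.9 CPM with no overlap between groups (log2 fold change 0.16, SE 0.07, edgeR adjusted p 0.26). Grb2, the general adaptor of receptor kinases, had 121 ± 7.64 and 110 ± 5.82 CPM. Grb7, which binds the phosphorylated tail of Tie2, was near the limit of detection at 0.299 ± 0.0231 and 0.733 ± 0.220 CPM (log2 fold change 1.31, SE 0.34, edgeR adjusted p 0.12). Grb14, of the same adaptor family, had 64.3 ± 15 and 49.6 ± 2.36 CPM, and Nck1, an adaptor to the cytoskeleton, had 42.9 ± 2.76 and 37.2 ± 0.473 CPM.

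Integrins, sheddases and other binding partners of the pathway had 9 tested genes of 10, with 3 above 0 and 6 below (median -0.044). Itga5, the alpha chain of the fibronectin receptor, was higher at an unadjusted p under 0.05 with 176 ± 14.0 and 210 ± 11.4 CPM (log2 fold change 0.25, SE 0.08, edgeR adjusted p 0.18). Mmp14, a membrane-bound metalloproteinase, had 113 ± 16.5 and 135 ± 4.64 CPM (0.26, SE 0.11, edgeR adjusted p 0.24). The groups did not overlap for either. The most abundant integrin chain, Itgb1, had 939 ± 69.7 and 913 ± 15.8 CPM, and Itgb5 had 174 ± 19.5 and 178 ± 5.57 CPM.

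FOXO factors act at the end of the relay, and 10 of their known target genes were listed and tested. Of these, 3 had a log2 fold change above 0 and 7 below, with a median of -0.22. In edgeR 5 were lower and 0 higher at an unadjusted p under 0.05, where 9.98% of all genes were lower. The same 5 had no overlap between groups, where 12.8% of all genes were lower without overlap. Cat, the gene of catalase, had 88.0, 85.7 and 86.2 CPM in control-labelled and 69.7, 67.4 and 74.3 CPM in mutant-labelled hearts (log2 fold change -0.30, SE 0.06, edgeR adjusted p 0.091). Pdk4, which encodes a kinase that limits pyruvate oxidation, had 64.4, 68.1 and 54.8 CPM against 48.8, 46.2 and 43.3 CPM (-0.44, SE 0.10, edgeR adjusted p 0.093). Sesn1, of the sestrin family of stress proteins, had 49.9 ± 3.70 and 40.7 ± 1.45 CPM. Sod2, the mitochondrial superoxide dismutase gene, had 245 ± 41.0 and 191 ± 3.57 CPM, and Bcl6, a repressor gene named after its value was seen, had 2.76 ± 0.508 and 1.92 ± 0.125 CPM. DESeq2 called 3 of the 10 lower (Cat, Pdk4 and Sesn1). Cat, Sod2 and Pdk4 are expressed by many cell types, heart muscle cells among them, so their RNA in a whole heart is not a readout of endothelial cells alone.

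Transcription factors linked to the Tie and angiopoietin genes had 11 tested genes of 12, with 5 above 0 and 6 below (median -0.040). Ets2, an ETS family member, had 159, 138 and 169 CPM in control-labelled and 118, 115 and 116 CPM in mutant-labelled hearts, and DESeq2 called it lower (adjusted p 0.0015), whereas its edgeR adjusted p was 0.083 with a log2 fold change of -0.42 (SE 0.09). Epas1, the gene of HIF-2alpha, had 70.9 ± 9.05 and 58.0 ± 2.23 CPM, and Elf1, another ETS factor, had 30.7 ± 0.395 and 26.8 ± 0.576 CPM. Both were lower at an unadjusted p under 0.05. Etv6, an ETS repressor, was higher at that level with 45.9 ± 3.66 and 54.3 ± 3.88 CPM. Hif1a, the most abundant per kb, had 260 ± 31.2 and 300 ± 18.3 CPM with overlap.

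**Figure D4:**
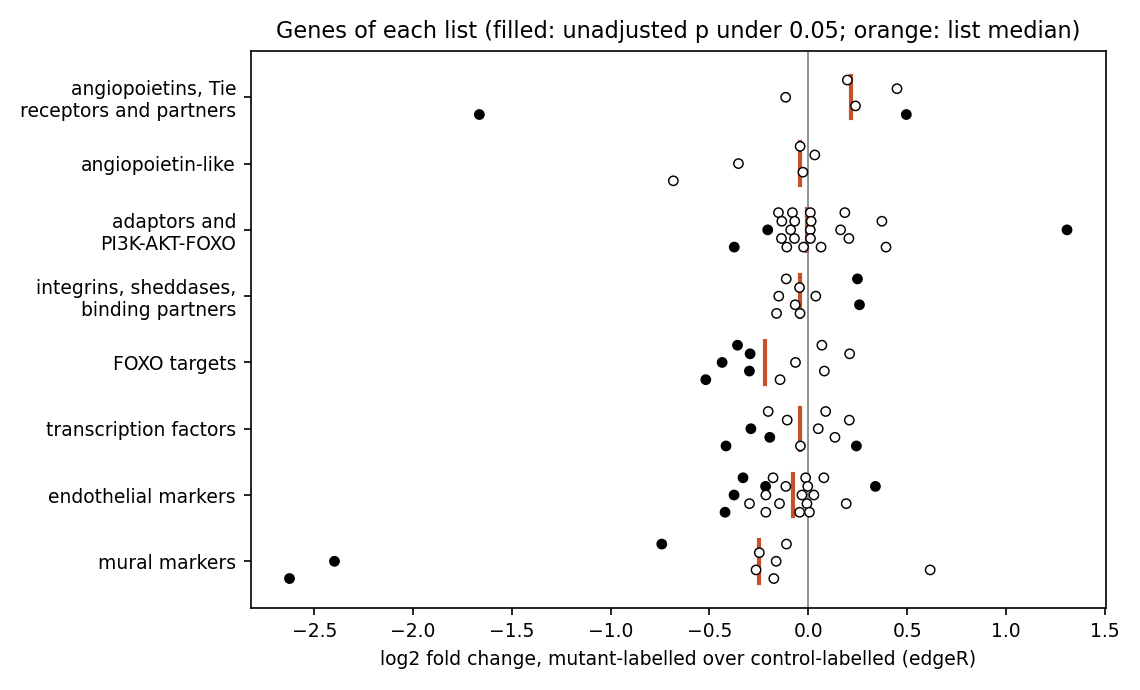
Log2 fold changes, mutant-labelled over control-labelled (horizontal axis), of the tested genes in the group of 6, in 5 pathway lists and in the endothelial and mural marker lists. Filled points have an unadjusted edgeR p under 0.05, orange bars are list medians, the grey line is the median of all genes, and heights within a row only separate points. The FOXO target list has its median at -0.22 and 5 filled points, all on the lower side.

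For each member, the genes with the most similar pattern over the 6 hearts were found by Pearson's r of log2(CPM + 1) among 17119 genes. With so few hearts between 80 and 458 genes reached an r over 0.9 with a given member, so the lists describe the order of the hearts and no more. For Tek the 5 closest were Sfmbt2, Ciart, Rasgef1b, Gria3 and Slc16a12, and for Tie1 they were Cdca4, Coro1c, B4galt5, Mast3 and Tmem151a. For Angpt1 they were Sertm1, Atf7ip2, Medag, Atp1b1 and Ache, and for Svep1 they were Zfp462, Chd4, Atp8b2, Pias3 and Gltscr1. For Angpt2 they were 4833439L19Rik, Eln, Arhgef7, Mamld1 and AW209491, with r between 0.989 and 0.996. Ptprb had the fewest close genes, led by Gramd2, Osbpl11, Ces2g, Ptch1 and Aldh1l1, with r between 0.963 and 0.984. No other member was among the 5 closest because members were left out of the search.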

How the data were processed

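RNA of 6 whole hearts was sequenced, 1 library a heart. The authors mapped reads to GRCm38 with STAR 2.4.2a (GENCODE vM6) and deposited raw counts per gene from summarizeOverlaps. The authors' second table also holds a mean normalized signal, of which nothing was used but the symbols (26306 identifiers); its fold changes and p-values are the authors' own comparison and were not used. The use of strand is not given in the sources used here.

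Counts were fitted with edgeR 4.0.16, limma 3.58.1 and R 4.3.3 (filterByExpr, minimum count 10 and total 15, TMM, quasi-likelihood test, condition only, Benjamini-Hochberg over 17125 genes, threshold 0.05). The standard error is the log2 fold change divided by the root of F. The common biological coefficient of variation between hearts was 0.153, and the depth was 28948836 to 89675692 counts a heart. For genes of few counts, such as Angpt2 with 30 to 239 counts a heart, counting error also limited precision. Coordinates and merged exon lengths came from GENCODE vM21 (45229 of 45792 identifiers matched). Ratios and marker means were set side by side with exact permutation tests, two-sided. Steps were tested on simulated counts. Alternatives were RLE and upper quartile scaling, DESeq2 1.42.0, 2 filters on low counts, the replicate number as a block, leaving out each heart, and for ratios 1 CPM added and the summed markers as reference. Members and lists were chosen with earlier results of these data known. Named were the members, Ino80, and in each pathway list the 2 most abundant genes per kb and up to 4 with the smallest unadjusted p under 0.05. The 2 most abundant genes of the marker lists that bear on a member and the 5 genes closest to each member were also named. In the endothelial, mural, lymphatic, and epicardial and mesenchymal lists the genes with an unadjusted p under 0.05 were added.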

Additional observations from a re-analysis of the deposited data

How the results depend on the processing

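The scaling by RLE or upper quartile and the filter at 1 CPM in 3 hearts changed no call. DESeq2 called 982 genes, of which 1 member (Angpt2) and 4 pathway genes (Cat, Pdk4, Sesn1 and Ets2). Without a filter on low counts edgeR called 603 of 28298 genes, 262 higher and 341 lower. Among these were 1 member (Angpt2) and 2 pathway genes (Pdk4 and Ets2), all lower. Leaving out each heart in turn gave between 0 and 751 calls over all genes, 0 and 2 among members, and 0 and 2 among pathway genes, the most without control heart 1 (Angpt1, Angpt2, Sod2 and Epas1). The signs of some estimates near 0 turned when a heart was left out, with log2 fold changes between -0.26 and 0.0093 for Ptprb, -0.022 and 0.11 for Angptl2, -0.088 and 0.018 for Itgb1, -0.046 and 0.11 for Itgb5, -0.13 and 0.079 for Cdh5, -0.17 and 0.11 for Eng, -0.17 and 0.011 for Acta2, and -0.21 and 0.45 for Col1a1. Without the filter Eng was at 0.0018. The ratio of Tie1 to Tek ran from -0.033 to 0.17 and Ptprb relative to endothelial markers from -0.15 to 0.074. The cause was not tested in any of these.

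The replicate numbers did not pair the hearts: deviations of same-numbered hearts had correlations of 0.024, -0.084 and -0.073, and no heart correlated best with its own number. With the number as a block edgeR called 14 genes, none of them a member, the Angpt2 estimate was -1.42 and that of Eng 0.015. With 3 hearts a group the ratios could not reach a p under 0.1, and Grb7, at under 1 CPM, is limited by counting error.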

Other observations

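Lymphatic endothelial markers, which bear on Svep1 and Tie1 because both are needed in lymphatic vessels, were listed as 6 genes. They summed to between 185 and 201 CPM in control-labelled and between 187 and 201 CPM in mutant-labelled hearts, and most of that sum was Prox1, at 109 ± 4.35 and 114 ± 6.76 CPM, which heart muscle cells also express. Vegfc, the growth factor of lymphatic vessels, had 22.1 ± 0.935 and 24.6 ± 3.31 CPM. Lyve1, a receptor of lymphatic vessels and macrophages, was the only gene of the list with an unadjusted p under 0.05, at 11.99 ± 1.85 and 8.80 ± 0.387 CPM, a log2 fold change of -0.45 (SE 0.13) with an edgeR adjusted p of 0.15. Macrophage markers, 9 genes, summed to between 65.0 and 90.3 CPM in control-labelled and between 82.5 and 85.2 CPM in mutant-labelled hearts. Of these genes 5 had a log2 fold change above 0 and 4 below. The part of macrophages in the Lyve1 values was not tested.

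Angpt1 is made by mesenchymal cells around vessels and by heart muscle cells. The 10 epicardial and mesenchymal markers summed to between 2194 and 3411 CPM under the control label and between 2234 and 3037 CPM under the mutant label, and these sums overlapped. Most of each sum came from the collagen genes Col1a1, Col1a2 and Col3a1. DESeq2 called Upk3b higher (log2 fold change 0.57, adjusted p 0.0012) and Dcn lower (-0.46, adjusted p 0.0028), where it called 2.63% and 3.22% of all genes. Their edgeR adjusted p was 0.083 and 0.091, and the groups did not overlap for either.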
